A study of Capra hircus with 9 samples.

Results

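The antioxidant enzyme genes described here were 10 genes matched by symbol in an expression table of goat (Capra hircus) mammary gland, which holds 23499 genes: SOD1, SOD2, SOD3, CAT, GPX3, PRDX1, PRDX6, TXNRD1, NQO1 and GCLC. They were chosen by their function, with earlier results of these data known, and all 10 passed the filter on low values. RNA was sequenced from whole mammary tissue of 9 Laoshan dairy goats, 1 library per goat. 3 goats were in late lactation (LL, 240 days postpartum), 3 in the dry period (DP, 300 days postpartum) and 3 in late gestation (LG, 140 days after mating), and the libraries are numbered 1 to 3 within each stage as in their titles. The animals were healthy adult females of the third parity, about 4 years old, kept on 1 farm and sampled after slaughter, so each goat gave a single stage and no goat was followed over time. Values were taken as FPKM, fragments scaled to transcript length and to the size of the library. The table does not name its unit, and each comparison of levels between genes rests on this reading. Because the tissue is a mixture of cells, fewer cells of a type and less RNA per cell cannot be told apart.

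Superoxide dismutases turn superoxide into hydrogen peroxide, and catalase, glutathione peroxidases and peroxiredoxins remove the peroxide. The peroxidases draw their electrons from glutathione or from thioredoxin, which glutamate-cysteine ligase, glutathione reductase and thioredoxin reductase keep in supply, and the transcription factor NRF2 activates many of these genes. A milk-secreting gland uses much oxygen for synthesis, and a drying gland is cleared of secretory cells and entered by immune cells, so the mammary gland is a tissue in which these enzymes are often studied.

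The most abundant genes took 80.6% to 86.0% of the summed FPKM in the LL libraries when the 10 highest genes of each library were added, against 53.6% to 58.5% in the other libraries. CSN2, the beta-casein gene, alone stood at a mean of 94297 FPKM for LL, 32.1 for DP and 4938 for LG. FPKM are relative to all fragments of a library, and most genes stood lower in LL as deposited: the median difference over the 14701 genes tested was 1.09 for DP against LL, 0.93 for LG against LL and −0.18 for LG against DP on the log2 scale without scaling. Each library was therefore divided by a median-ratio factor (LL 0.496 to 0.604, DP 1.44 to 1.52, LG 1.19 to 1.31), and a scaled value below is FPKM divided by this factor. A gene was called where limma with Benjamini-Hochberg adjustment over all genes tested gave an adjusted p under 0.05 and the log2 fold change, taken on log2(scaled FPKM + 1), was at least 1 in size. Luminal epithelial markers (KRT7, KRT8, KRT18, KRT19, EPCAM, CDH1, ELF5) were present in every library. By summed scaled markers, DP library 3 was the highest for fibroblast and smooth muscle markers and DP library 1 for lymphocyte and adipocyte markers.

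As deposited, all 10 genes stood higher in DP than in LL without overlap between the 3 libraries of each stage, as did 84% of all genes tested. In LG, 8 of the 10 stood above LL without overlap, where 76.1% of all genes did so. Between LG and DP, 5 of the 10 did not overlap (1 higher and 4 lower in LG), against 49.8% of all genes in either direction. After scaling, the genes went in different directions: SOD2, the mitochondrial dismutase, stood highest in DP, SOD1, the cytosolic one, stood lowest in DP, GPX3 and PRDX6 were low in LG, and TXNRD1, NQO1 and GCLC differed little between the stages.

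**Figure D1:**
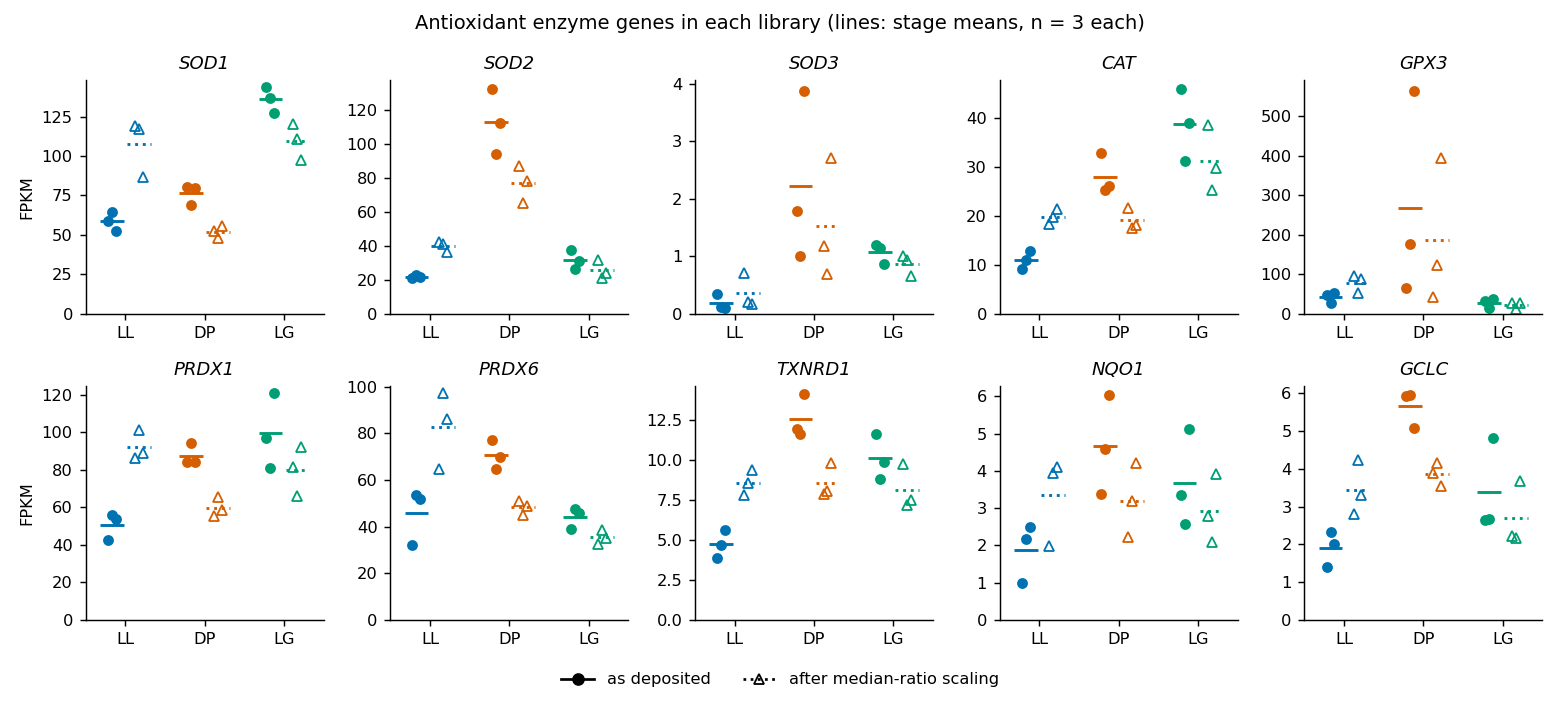
Level of each antioxidant enzyme gene in FPKM (vertical axes from 0, one scale per gene) in the 9 libraries by stage, as deposited (filled circles, solid mean lines) and after median-ratio scaling (open triangles, dotted mean lines), 3 libraries per stage. The scaling turns the order of LL and DP for SOD1 (means of 58.8 and 76.4 FPKM as deposited, 108 and 52.1 scaled) but not for SOD2 (21.8 and 113 FPKM, 39.8 and 76.7 scaled), and GPX3 is spread from 64.7 to 565 FPKM within DP.

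SOD1, the copper-zinc superoxide dismutase of the cytosol, lies on chromosome 1 at 2298761 to 2307035 on the minus strand. It stood at 59.1, 64.7 and 52.5 FPKM for LL, 80.4, 69.1 and 79.7 for DP, and 144, 137 and 128 for LG. The LG libraries were the highest and no 2 stages overlapped. Scaled, SOD1 was 108 ± 18.0 for LL, 52.1 ± 3.77 for DP and 110 ± 11.5 for LG (mean ± SD, n = 3 each), so that DP stood below both other stages without overlap while LL and LG overlapped. SOD1 was called lower in DP than in LL (log2 fold change −1.02, SE 0.17, adjusted p = 0.00091 by limma with Benjamini-Hochberg adjustment). It was the 1 of 10 genes called in this comparison, against 22.6% of all genes tested. It was called higher in LG than in DP (1.05, SE 0.17, limma adjusted p = 0.0015), and differed between LG and LL by 0.033 (95% confidence interval −0.35 to 0.42, limma adjusted p = 0.888). The DP to LL difference fell short of the size of 1 without LL library 1 (−0.96), without LL library 2 (−0.98), without DP library 2 (−0.97) and with upper-quartile scaling (−0.91). It was −0.29 after quantile normalization (limma adjusted p = 0.132), and the direction turned without scaling (0.37). The 7 luminal epithelial markers summed to 885 to 1154 scaled FPKM for LL, 347 to 652 for DP and 837 to 1003 for LG. The stage order of these sums rests on ELF5, the highest of the 7 in LL and LG. As deposited, ELF5 had means of 325 FPKM for LL, 46.9 for DP and 566 for LG. Of the 7, ELF5 alone was called between DP and LL (log2 fold change −4.19, limma adjusted p = 3.13e-06), against 22.6% of all genes tested. KRT7, KRT8 and KRT18 leaned higher in DP than in LL (0.86, 0.28 and 0.60) and KRT19, EPCAM and CDH1 lower (−0.40, −0.74 and −0.48). The part of these markers in the SOD1 difference was not tested. The LG to DP difference fell short of 1 without LG library 1 (0.99) and under no scaling (0.82), quantile normalization (0.73) and upper-quartile scaling (0.95), and kept its direction.

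SOD2, the manganese superoxide dismutase of mitochondria, lies on chromosome 9 at 83258894 to 83271425 on the minus strand. Its levels were 21.1, 22.5 and 21.8 FPKM for LL, 132, 93.7 and 112 for DP, and 37.6, 26.1 and 31.2 for LG. Each DP library held more than 2 times the level of any library of the other stages, and the LG libraries stood just above LL. Scaled, it was 39.8 ± 3.29 for LL, 76.7 ± 10.8 for DP and 25.5 ± 5.37 for LG (mean ± SD, n = 3 each), with no overlap between any 2 stages. SOD2 was called lower in LG than in DP (−1.56, SE 0.18, limma adjusted p = 0.00029), 1 of 3 genes called there against 13.3% of all genes. In DP against LL the difference was 0.92 (SE 0.18, limma adjusted p = 0.0023), just under the size of 1. It passed that size without DP library 2 (1.03) and with upper-quartile scaling (1.03), quantile normalization (1.59) or no scaling (2.31). The LG to LL difference was −0.64 (limma adjusted p = 0.016) and turned to 0.50 without scaling. Summed macrophage markers had the same order of stages as SOD2, at 37.7 to 47.3 scaled FPKM for LL, 80.3 to 99.2 for DP and 28.5 to 30.7 for LG. Within DP the order differed: scaled SOD2 was 86.7, 65.2 and 78.2 in libraries 1 to 3, and the macrophage sums were 80.3, 84.6 and 99.2. Summed endothelial markers also had their highest median in DP (142.4) and their lowest in LG (86.6), beside 112.5 in LL. Of the 5 macrophage markers tested, 2 were called higher in DP than in LL, against 13.8% of all genes tested. MARCO, another macrophage marker, was at or near 0 in every library. The part of macrophages or endothelial cells in the SOD2 difference was not tested.

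SOD3, the secreted superoxide dismutase that binds the extracellular matrix, lies on chromosome 6 at 44812009 to 44818289 on the plus strand. It was the lowest of the 10 genes in every stage, at 0.35, 0.11 and 0.10 FPKM for LL, 1.79, 1.00 and 3.88 for DP, and 1.20, 1.15 and 0.86 for LG. As deposited, LL stood below both other stages without overlap, whereas the scaled stages overlapped in each pair. The log2 fold change of DP against LL was 0.84 (SE 0.27, limma adjusted p = 0.024), and a pseudocount of 1 understates the difference of so low a gene. The difference passed the size of 1 with a pseudocount of 0.1 (1.82), without LL library 1 (1.06), without DP library 2 (1.06) and without scaling (1.35). It was 0.31 after quantile normalization (limma adjusted p = 0.415) and 0.51 without DP library 3 (limma adjusted p = 0.0529), and without LL library 2 or LL library 3 the limma adjusted p was 0.0779 and 0.0782. LG differed from LL by 0.48 (limma adjusted p = 0.170) and from DP by −0.36 (limma adjusted p = 0.324).

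CAT, catalase, the peroxisomal enzyme that splits hydrogen peroxide, lies on chromosome 15 at 17920347 to 17956671 on the minus strand. The LL libraries held 9.05, 10.9 and 12.9 FPKM, the DP libraries 32.7, 25.2 and 26.0, and the LG libraries 45.9, 31.1 and 38.8. LL was the lowest stage, and DP and LG overlapped by a single library each. Scaled, CAT was 19.8 ± 1.52 for LL, 19.0 ± 2.13 for DP and 31.1 ± 6.69 for LG (mean ± SD, n = 3 each), so that LG stood above the other two without overlap. LG differed from LL by 0.61 (SE 0.17, limma adjusted p = 0.0147) and from DP by 0.67 (SE 0.17, limma adjusted p = 0.0147), both under the size needed for a call. DP against LL was −0.054 (95% confidence interval −0.44 to 0.33, limma adjusted p = 0.801). Without scaling CAT was called higher than LL in both DP (1.28) and LG (1.73).

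GPX3, the glutathione peroxidase that cells secrete into plasma and milk, lies on chromosome 7 at 48112334 to 48120522 on the minus strand. It stood at 46.8, 28.2 and 52.9 FPKM for LL, 64.7, 176 and 565 for DP, and 31.6, 15.4 and 36.4 for LG. The DP libraries were spread the most and all stood above LL, and the LG libraries overlapped the lowest LL library. Scaled, it was 77.6 ± 23.2 for LL, 186 ± 184 for DP and 22.2 ± 8.46 for LG (mean ± SD, n = 3 each), with LG below both other stages without overlap. GPX3 was called lower in LG than in DP (−2.54, SE 0.67, limma adjusted p = 0.0163) and in LG than in LL (−1.79, SE 0.67, limma adjusted p = 0.0491). In LG against LL it was 1 of 2 genes called, against 17.3% of all genes tested. Leaving out any library of LL or LG, or DP library 2, took the LG to LL call away: the difference was −1.64, −2.08 and −1.69 without LL library 1, 2 and 3, −1.95, −1.44 and −1.98 without LG library 1, 2 and 3, and −1.78 without DP library 2, at limma adjusted p from 0.0575 to 0.154. That call was also lost without scaling (−0.64), after quantile normalization (−1.48) and with no filter on low values (limma adjusted p = 0.0877). The wide spread within DP enters the main fit. The limma adjusted p of LG against LL was 0.0032 with the libraries of these 2 stages only, 0.0114 without DP library 1 and 0.0081 without DP library 3. The LG to DP call was lost without LG library 2 (−2.19, limma adjusted p = 0.057). DP against LL was 0.76 (95% confidence interval −0.75 to 2.26, limma adjusted p = 0.353), was −0.052 without DP library 3, and was called at 1.54 without DP library 1 and at 2.15 without scaling.

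DP library 3, in which GPX3 and SOD3 were highest, also held the most fibroblast RNA by its markers, with COL1A1 at 475 FPKM against 54.5 and 127 in the other DP libraries. Summed over the 7 fibroblast markers, the scaled level was 228 to 350 for LL, 571 to 2601 for DP and 534 to 973 for LG. Of the 7, 6 were called higher in DP than in LL, against 13.8% of all genes tested. The 7 pericyte and smooth muscle markers summed to 560 in DP library 3 and to 145.9 to 237 in the other 8 libraries. DP library 1, in which GPX3 was lowest among the DP libraries, held 19.3 FPKM of the adipocyte gene ADIPOQ and 6.54 FPKM of the B cell gene CD79B, against at most 1.72 and 0.18 in any other library. The adipocyte markers PLIN1, LEP and CIDEC were also highest there (5.83, 0.86 and 5.11 FPKM). LIPE was not, at 3.65 FPKM against 5.42 in LG library 3, and was called lower in DP than in LL (−1.49). ADIPOQ and CIDEC were not called in DP against LL. The part of these cell types in the GPX3 and SOD3 values was not tested. The red cell gene ALAS2 was at 0 in every library, while AHSP stood at 0 to 0.41 FPKM and SLC4A1 at 0 to 0.02. The globin genes HBB, HBA and HBA1 were not found by symbol, so the blood content of the tissue was not measured by them.

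PRDX1, a cytosolic peroxiredoxin that thioredoxin recharges, lies on chromosome 3 at 20210224 to 20220796 on the minus strand. It was measured at 42.7, 55.7 and 53.5 FPKM for LL, 84.2, 94.0 and 83.9 for DP, and 96.9, 80.8 and 121 for LG. LL was the lowest stage without overlap, and DP and LG overlapped. Scaled means were 91.8 ± 8.02 for LL, 59.7 ± 5.19 for DP and 79.7 ± 13.3 for LG (SD, n = 3 each). DP stood below LL by 0.61 (log2 fold change −0.61, SE 0.17, limma adjusted p = 0.0116), under the size needed for a call, and the direction turned after quantile normalization (0.13) and without scaling (0.78). The LG to LL difference was −0.21 (limma adjusted p = 0.316) and the LG to DP difference 0.40 (limma adjusted p = 0.0909).

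PRDX6, a peroxiredoxin that uses glutathione and also acts on membrane phospholipids, lies on chromosome 16 at 53452553 to 53463559 on the plus strand. It stood at 32.1, 53.5 and 51.9 FPKM for LL, 77.3, 64.7 and 70.0 for DP, and 38.9, 47.4 and 45.8 for LG. DP stood above both other stages and LL overlapped LG. Scaled, the order was LL 82.5 ± 16.5, DP 48.2 ± 2.91 and LG 35.4 ± 3.02 (mean ± SD, n = 3 each), with no overlap between any 2 stages. PRDX6 was called lower in LG than in LL (−1.18, SE 0.17, limma adjusted p = 0.00053) and remained called without each library in turn (−1.36 to −1.07). The difference was −0.83 after quantile normalization and −0.026 without scaling, where it was not called. DP differed from LL by −0.75 (limma adjusted p = 0.0053), which turned to 0.65 without scaling, and LG from DP by −0.44 (limma adjusted p = 0.0781).

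TXNRD1, the cytosolic thioredoxin reductase, lies on chromosome 5 at 66561522 to 66657568 on the plus strand. The LL libraries held 3.86, 4.70 and 5.63 FPKM, the DP libraries 11.9, 11.6 and 14.1, and the LG libraries 11.6, 8.79 and 9.82. LL was the lowest stage as deposited, and the 3 stages overlapped in every pair after scaling. The differences were 0.0016 for DP against LL (95% confidence interval −0.33 to 0.33), −0.072 for LG against LL (−0.40 to 0.26) and −0.074 for LG against DP (−0.40 to 0.26), with limma adjusted p of 0.993, 0.708 and 0.732. EID3, a gene on the same strand within the TXNRD1 span, stood at means of 1.29, 2.30 and 1.46 FPKM in LL, DP and LG, so the reads of the pair may have been shared between them and the TXNRD1 level is uncertain to that extent.

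NQO1, a quinone reductase that spares cells the redox cycling of quinones, lies on chromosome 18 at 38048624 to 38061853 on the minus strand. Its levels were 0.98, 2.18 and 2.48 FPKM for LL, 3.37, 4.59 and 6.03 for DP, and 3.34, 2.56 and 5.12 for LG. DP and LG each stood above LL as deposited and overlapped one another. After scaling all pairs overlapped, and the differences were −0.034 for DP against LL (95% confidence interval −0.62 to 0.55), −0.13 for LG against LL (−0.71 to 0.45) and −0.096 for LG against DP (−0.68 to 0.49), with limma adjusted p of 0.916, 0.701 and 0.804.

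GCLC, the catalytic subunit of glutamate-cysteine ligase, which carries out the rate-limiting step of glutathione synthesis, lies on chromosome 23 at 41632443 to 41677555 on the minus strand. It stood at 1.39, 2.34 and 2.0 FPKM for LL, 5.92, 5.97 and 5.09 for DP, and 2.65, 2.68 and 4.82 for LG. No 2 stages overlapped as deposited, and all pairs overlapped after scaling. The scaled differences were 0.14 for DP against LL (95% confidence interval −0.26 to 0.53), −0.28 for LG against LL (−0.67 to 0.11) and −0.42 for LG against DP (−0.81 to −0.026, limma adjusted p = 0.0918). These intervals for TXNRD1, NQO1 and GCLC leave room for changes below the size of a call, and an adjusted p over 0.05 does not show equal levels.

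Counted over the 10 genes, 1 was called in DP against LL, and it was lower, where 13.8% of all genes tested were called higher and 8.79% lower. In LG against LL 2 were called, both lower, beside 10.7% higher and 6.61% lower over all genes. In LG against DP 1 was called higher (SOD1) and 2 lower (SOD2 and GPX3), beside 6.38% higher and 6.89% lower. With the adjusted p alone, 5, 4 and 4 of the 10 passed, against 56.9%, 50.2% and 34.8% of all genes tested. The median log2 fold change of the 10 was −0.016, −0.17 and −0.23 in the 3 comparisons, beside 0.0041, 0.019 and 0.0083 over all genes. After scaling, 4, 4 and 6 of the 10 genes did not overlap between the 2 stages, against 65.9%, 61.1% and 47.9% of all genes. The 3 comparisons share libraries in pairs, since LL and DP and LG each enter 2 of them. In a two-sided exact permutation test over 3 against 3 libraries the smallest p possible is 0.1, which every scaled comparison without overlap reached.

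**Figure D2:**
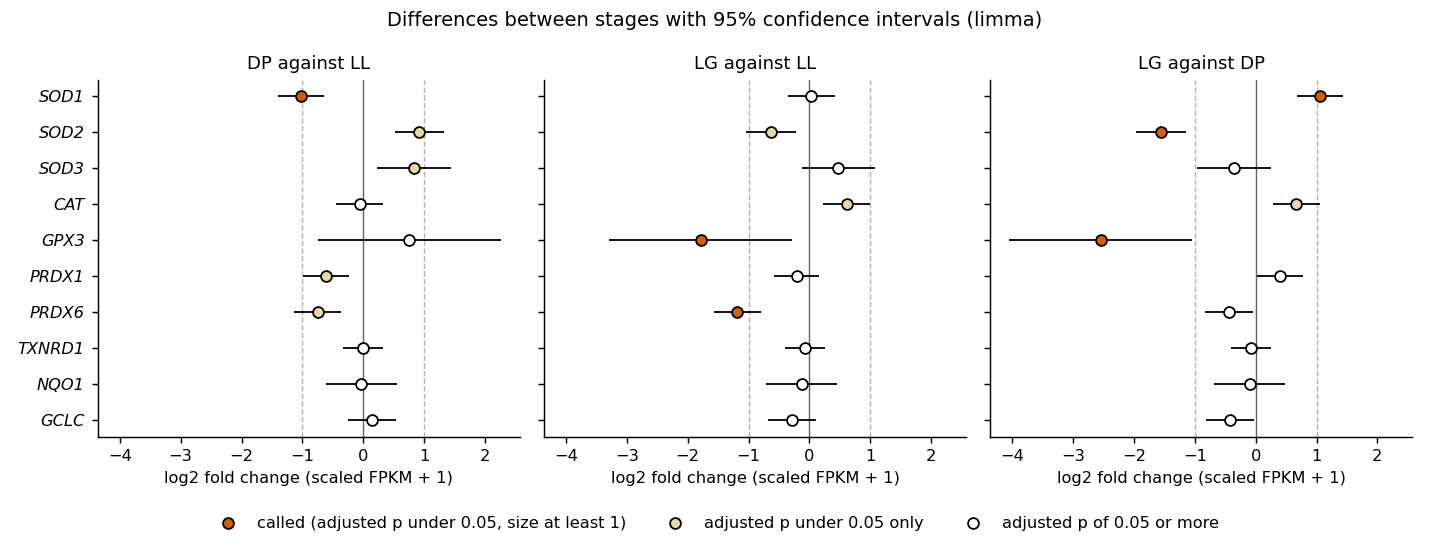
Log2 fold change of log2(scaled FPKM + 1) for the 10 genes in the 3 comparisons (horizontal axis; points are limma estimates from all 9 libraries, bars their 95% confidence intervals, dashed lines the call size of 1). Called genes are filled orange: SOD1 in DP against LL, GPX3 and PRDX6 in LG against LL, and SOD1, SOD2 and GPX3 in LG against DP; GPX3 has the widest intervals.

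A plain ratio of 2 genes within a library does not depend on the scaling between libraries. Log2 ratios were taken on deposited FPKM + 1, so that a ratio with a low gene such as SOD3 also depends on the added 1. The log2 ratio of SOD2 to SOD1 was −1.45, −1.48 and −1.23 for LL, 0.71, 0.43 and 0.49 for DP, and −1.90, −2.35 and −2.0 for LG. The mitochondrial dismutase thus exceeded the cytosolic one per length in each DP library and in no library of the other stages. The mean difference was 1.93 (SE 0.11) for DP against LL, −0.70 (SE 0.16) for LG against LL and −2.63 (SE 0.16) for LG against DP, each without overlap (exact permutation p = 0.1, the smallest possible with 3 against 3, and 0.15 after adjustment over 18 ratio tests). The DP to LL difference of this ratio lay between 1.85 and 2.01 when each library was left out in turn.

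The log2 ratio of GPX3 to CAT, 2 enzymes that remove peroxide, was 2.25, 1.30 and 1.96 for LL, 0.96, 2.76 and 4.39 for DP, and −0.53, −0.97 and −0.090 for LG. CAT exceeded GPX3 in each LG library and GPX3 exceeded CAT in each of the other 6. LG differed from LL by −2.36 (SE 0.38) and from DP by −3.23 (SE 1.02), both without overlap, whereas DP and LL overlapped (0.87, SE 1.03, exact permutation p = 0.5). The DP to LL value lay at 0.025 without DP library 3 and at 1.74 without DP library 1.

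The log2 ratio of PRDX6 to PRDX1 was −0.40, −0.056 and −0.042 for LL, −0.12, −0.53 and −0.26 for DP, and −1.30, −0.76 and −1.38 for LG. The LG libraries stood lowest, by 0.98 against LL (difference −0.98, SE 0.23) and by 0.84 against DP (difference −0.84, SE 0.23), and DP overlapped LL (−0.14, SE 0.17). For TXNRD1 to PRDX1 the DP libraries stood above both other stages, with a difference of 0.46 (SE 0.15) against LL and of −0.46 (SE 0.20) for LG against DP. The SOD3 to SOD1 log2 ratio was higher in DP than in LL by 0.97 (SE 0.35) with a pseudocount of 1 and by 2.54 with 0.1. For LG against LL its sign depended on the pseudocount, at −0.39 with 1 and 0.91 with 0.1. With no pseudocount, SOD3 divided by SOD1 was 0.00592, 0.00170 and 0.00190 for LL, 0.0223, 0.0145 and 0.0487 for DP, and 0.00835, 0.00842 and 0.00674 for LG, so that each LG library stood above each LL library. NQO1 to GCLC overlapped in all 3 comparisons.

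**Figure D3:**
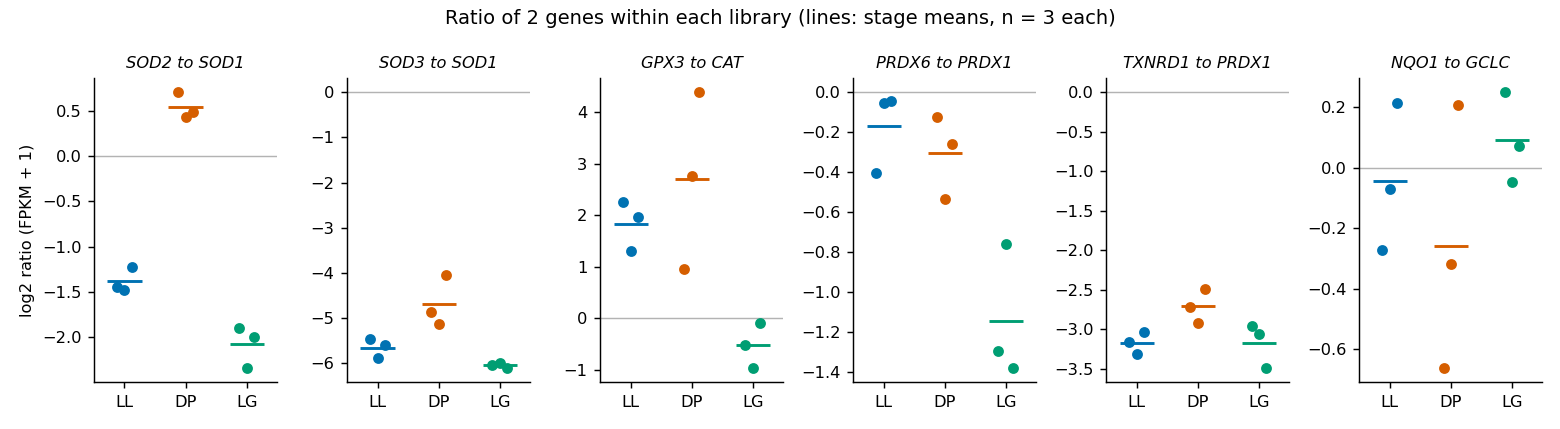
Log2 ratio of (FPKM + 1) of 2 antioxidant enzyme genes within each library, by stage (points are libraries, lines the means of 3; one vertical scale per ratio, grey line at equal levels). The SOD2 to SOD1 ratio is above 0 in the DP libraries (0.43 to 0.71) and below 0 elsewhere (−2.35 to −1.23), and the GPX3 to CAT ratio is below 0 in the LG libraries (−0.97 to −0.090).

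Per length, SOD1, PRDX1, PRDX6 and GPX3 were the highest of the 10 in LL, with means of 58.8, 50.6, 45.8 and 42.6 FPKM and overlapping libraries between each neighbouring pair. SOD2 (21.8 FPKM) and CAT (10.9) followed without overlap. In DP the order was GPX3 (269), SOD2 (113), PRDX1 (87.4), SOD1 (76.4) and PRDX6 (70.7). There the GPX3 libraries overlapped all of the next 4 genes, SOD2 overlapped PRDX1 and SOD1 overlapped PRDX6, while PRDX1 stood above SOD1. In LG, SOD1 (136) stood above PRDX1 (99.5) and PRDX1 above PRDX6 (44.1), each without overlap. CAT (38.6), SOD2 (31.6) and GPX3 (27.8) came next and overlapped as neighbours, as PRDX6 did with CAT. TXNRD1, GCLC, NQO1 and SOD3 were the 4 lowest in every stage, with GCLC and NQO1 overlapping in each.

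Among all 23499 genes, PRDX1 ranked 320 to 432 over the 9 libraries and SOD1 253 to 455. GPX3 ranged from rank 66 in DP library 3 to rank 2936 in LG library 2. TXNRD1 ranked 3597 to 5131, GCLC 7204 to 10525 and SOD3 10019 to 15120. The 10 genes summed to 217 to 256 FPKM for LL, 494 to 966 for DP and 353 to 421 for LG. Scaled, all 10 summed to 423 to 444 for LL, 324 to 673 for DP and 287 to 346 for LG, and LL and DP overlapped through DP library 3. Scaled and without GPX3, the sums were 336 to 393 for LL, 257 to 282 for DP and 274 to 320 for LG, so that LL stood highest without overlap.

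Of the summed FPKM of the 10 genes, SOD1 held 24.7% ± 3.64 for LL, 12.4% ± 4.01 for DP and 34.6% ± 4.22 for LG (mean ± SD, n = 3 each). GPX3 held 17.9% ± 5.55, 34.6% ± 22.8 and 6.88% ± 2.24, and its share in DP ran from 13.1% in library 1 to 58.5% in library 3. SOD2 held 9.14% ± 0.59 for LL, 18.5% ± 7.63 for DP and 7.97% ± 0.98 for LG. CAT made up 9.71% ± 1.22 in LG against 4.55% ± 0.44 in LL, and TXNRD1, NQO1, GCLC and SOD3 each stayed under 3%.

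**Figure D4:**
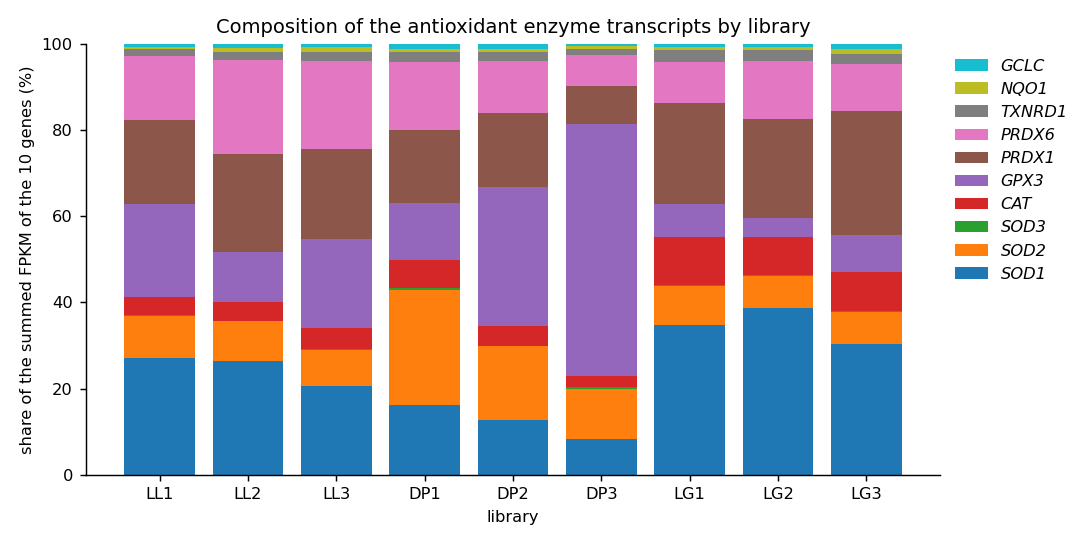
Share of each gene in the summed FPKM of the 10 antioxidant enzyme genes (vertical axis, percent, from 0 to 100) in each of the 9 libraries. SOD1 takes 30.3% to 38.7% in LG and 8.25% to 16.3% in DP, and GPX3 takes 58.5% in DP library 3.

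Among the other genes of the table, those with the pattern nearest to each member were ranked by Pearson r of log2(scaled FPKM + 1) over the 9 libraries, in which the 3 stages form separate groups. SOD1 was nearest to SLC22A16 (r = 0.990), a carnitine transporter, and NDUFA7 (r = 0.988), a subunit of respiratory complex I. SOD2 was nearest to ACOT9 (r = 0.973), a mitochondrial acyl-CoA thioesterase, and TBX3 (r = 0.973), a transcription factor. CAT was nearest to RAD51AP1 (r = 0.984), a DNA repair protein, and TTK (r = 0.984), a mitotic kinase, both of which had their highest mean in LG at 1.31 and 1.90 FPKM. GPX3 was nearest to PLPP1 (r = 0.972) and the glycolytic gene PKM (r = 0.969), and SOD3 to ARL2 (r = 0.968) and GNPNAT1 (r = 0.951). PRDX1 was nearest to ACP1 (r = 0.980) and ZMPSTE24 (r = 0.971), and PRDX6 to PIM3 (r = 0.983) and CHST12 (r = 0.982). For GCLC these were PAXBP1 (r = 0.961) and SMC5 (r = 0.950), for NQO1 UBE2R2 (r = 0.915) and RRAS2 (r = 0.887), and for TXNRD1 DCAF8 (r = 0.841) and RDX (r = 0.823). Without scaling, r was 0.543 for SOD1 and SLC22A16, 0.853 for CAT and RAD51AP1, 0.785 for CAT and TTK, 0.723 for PRDX6 and PIM3, 0.814 for PRDX6 and CHST12, 0.990 for TXNRD1 and DCAF8, and 0.986 for TXNRD1 and RDX. These values describe likeness in 9 libraries and carry no test.

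The rest of the antioxidant system was followed with 7 lists of 89 genes, of which 75 were in the table and 70 passed the filter. In DP against LL, 3 of the 70 were called higher and 18 lower, 30% in all against 22.6% of all genes tested. In LG against LL, 3 were called higher and 13 lower, 22.9% against 17.3%. In LG against DP, 7 were called higher and 7 lower, 20% against 13.3%. Their median log2 fold change was −0.30, −0.34 and 0.075 in the 3 comparisons. Over all genes tested, 13.8% were called higher and 8.79% lower in DP against LL. The shares were 10.7% and 6.61% in LG against LL and 6.38% and 6.89% in LG against DP. The counts of single lists below stand beside these shares.

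**Figure D5:**
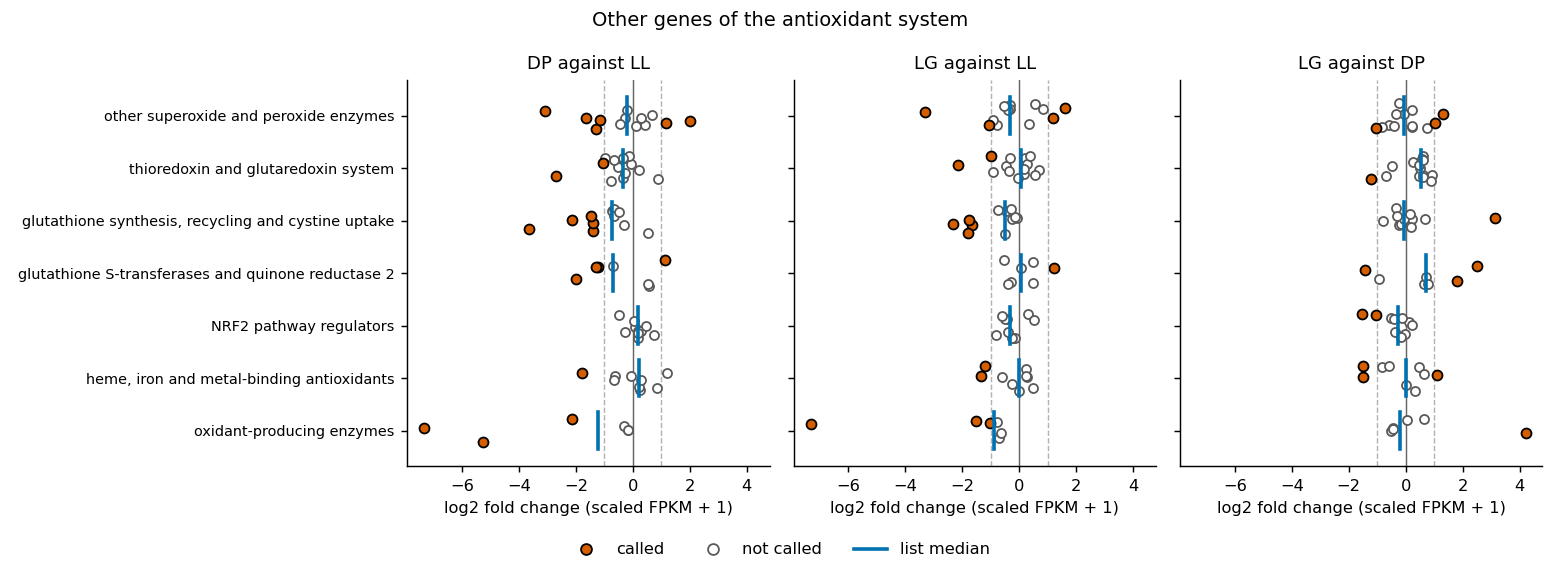
Log2 fold change of log2(scaled FPKM + 1) for the 70 other genes of the antioxidant system tested, by list (rows) and comparison (panels); filled points were called, blue bars are list medians, dashed lines the call size of 1, and vertical scatter within a row carries no value. LPO and XDH are the lowest points among the oxidant-producing enzymes in DP against LL (−7.35 and −5.25), and GSS is the lowest of the glutathione synthesis genes (−3.64).

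Of the 13 other superoxide and peroxide enzyme genes tested, 2 were called higher and 4 lower in DP than in LL, 2 higher and 2 lower in LG than in LL, and 2 higher and 1 lower in LG than in DP. GPX7, a peroxidase of the endoplasmic reticulum, stood at a mean of 0.18 FPKM for LL, 6.49 for DP and 3.72 for LG and was called higher than LL in DP (2.01, SE 0.21) and in LG (1.59, SE 0.21). GPX8, another peroxidase of that compartment, was called higher in LG than in LL (1.19, SE 0.27, limma adjusted p = 0.0054). SESN2, a stress-induced sestrin, was called lower in DP (−3.09, SE 0.34) and in LG (−3.32, SE 0.34) than in LL, while SESN3, a sestrin under FOXO control, was called higher in DP than in LL (1.17, SE 0.26). The SESN3 call was lost without LL library 1 (0.92) and without DP library 1 (0.93). GPX4, which reduces lipid peroxides, was called lower than LL in DP (−1.28, SE 0.22) and in LG (−1.07, SE 0.22). As deposited its means were 23.8, 25.4 and 24.7 FPKM in LL, DP and LG. The LG to LL call was lost without LL library 2 (−0.92) and after quantile normalization (−0.83), and the difference was 0.068 without scaling.

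The mitochondrial peroxiredoxins PRDX3 and PRDX5 were called higher in LG than in DP (1.02, SE 0.16, and 1.32, SE 0.19), and PRDX5 was called lower in DP than in LL (−1.64, SE 0.19, and −0.27 without scaling, where it was not called). The PRDX5 values followed those of its neighbour ESRRA, at 28.5 FPKM in DP and 60.6 in LG, so the 2 genes may share one measurement, and GPX1 was tied to RHOA in the same way. The PRDX3 call was lost without DP library 2 (0.96), DP library 3 (0.97), LG library 1 (0.93) or LG library 3 (0.997) and under the 3 other scalings (0.82 to 0.92). SRXN1, sulfiredoxin, which repairs oxidised peroxiredoxins, was called lower in LG than in DP (−1.05, SE 0.22), except without DP library 3 (−0.78), without LG library 2 (−0.91) and after quantile normalization (−0.96).

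In the thioredoxin and glutaredoxin system, 2 of 14 genes were called lower in DP and 2 lower in LG than in LL, and 1 lower in LG than in DP. GLRX, glutaredoxin, stood at 55.2 ± 11.3 FPKM for LL, 21.2 ± 2.21 for DP and 27.8 ± 8.79 for LG (mean ± SD, n = 3 each), and was called lower than LL in DP (−2.70, SE 0.26) and in LG (−2.14, SE 0.26, and −0.99 without scaling, where it was not called). MSRA, which reduces oxidised methionine, was called lower in DP than in LL (−1.05, SE 0.12), except without DP library 2 (−0.98), with upper-quartile scaling (−0.98) and without scaling (−0.062). MSRB3, another methionine sulfoxide reductase, was called lower in LG than in DP (−1.22, SE 0.29), and not without DP library 3 (−0.82). TXNIP, which binds and inhibits thioredoxin, was called lower in LG than in LL at −1.01 (limma adjusted p = 0.0308) and lost the call without LL library 2 (−0.77) or 3 (−0.90) or any LG library (−1.08 to −0.97) and after quantile normalization (−0.73), and stood at 0.17 without scaling.

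Genes of glutathione synthesis, recycling and cystine uptake were called lower in DP than in LL in 5 of 11 cases and in LG than in LL in 4 of 11, with none called higher. Over all genes tested, 8.79% and 6.61% were called lower, and the linked genes GGT1 and GGT5 enter both list counts. GSS, glutathione synthetase, which completes the tripeptide after GCLC, stood at 21.8, 43.3 and 26.8 FPKM for LL, 8.08, 3.75 and 3.79 for DP, and 59.9, 49.2 and 34.2 for LG. All DP libraries stood below all others. It was called lower in DP than in LL (−3.64, SE 0.32, limma adjusted p = 2.04e-05) and higher in LG than in DP (3.14, SE 0.32, limma adjusted p = 0.00016), whereas GCLC was called in neither. CHAC1, which degrades glutathione, was called lower than LL in DP (−2.15, SE 0.24) and LG (−2.33, SE 0.24). SLC7A11, the cystine transporter, was also called lower than LL in DP (−1.49, SE 0.17) and LG (−1.80, SE 0.17). GGT1 and GGT5, called lower in both comparisons with LL, had values tied to each other in the table and may be one measurement. GCLM, the partner subunit of GCLC, stood at 2.39, 9.94 and 4.32 FPKM in LL, DP and LG and was not called in any comparison (0.52, −0.26 and −0.78). Its limma adjusted p was 0.0282 in DP against LL and 0.0077 in LG against DP, with differences under the size needed for a call.

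Among 7 glutathione S-transferase and quinone reductase 2 genes, 1 was called higher and 3 lower in DP than in LL, 1 higher in LG than in LL, and 2 higher and 1 lower in LG than in DP. The microsomal transferases MGST1 and MGST2 were called lower in DP than in LL (−1.31, SE 0.21, and −2.01, SE 0.26) and higher in LG than in DP (1.80, SE 0.21, and 2.49, SE 0.26). MGST1 against LL in DP was −0.80 after quantile normalization and 0.062 without scaling, and MGST2 was −0.71 without scaling, none of them called. GSTM3, a cytosolic transferase, went the other way, called higher in DP than in LL (1.12, SE 0.26) and lower in LG than in DP (−1.43, SE 0.26), and its first call was lost without DP library 1 (0.94) or 3 (0.98). GSTK1, a transferase of mitochondria and peroxisomes, was called higher in LG than in LL (1.22, SE 0.21).

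None of the 10 genes of the NRF2 pathway was called in DP against LL or in LG against LL by limma, with 1 higher and 1 lower at adjusted p under 0.05 in the first and 1 higher and 2 lower in the second. In LG against DP, 0 were higher and 4 lower at that adjusted p, beside 2699 higher and 2413 lower of all 14701 genes tested. NFE2L2, which encodes NRF2, stood at 5.54 ± 0.99 FPKM for LL, 15.6 ± 1.27 for DP and 9.11 ± 2.69 for LG (mean ± SD, n = 3 each). Its scaled differences were 0.079 for DP against LL, −0.43 for LG against LL and −0.51 for LG against DP. The limma adjusted p were 0.704, 0.0573 and 0.0413, and none reached the size needed for a call. KEAP1, its inhibitor, differed by 0.17, 0.29 and 0.12. MAFF, a small MAF protein, and SQSTM1, an autophagy receptor that binds KEAP1, were called lower in LG than in DP (−1.54, SE 0.38, and −1.04, SE 0.16), the latter not without DP library 2 (−0.94) or LG library 1 (−0.96).

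Of 9 heme, iron and metal-binding antioxidant genes, 1 was called lower in DP than in LL, 2 lower in LG than in LL, and 1 higher and 2 lower in LG than in DP. SEPW1, selenoprotein W, was called lower than LL in DP (−1.80, SE 0.15) and LG (−1.34, SE 0.15), though not without scaling (−0.41 and −0.17), nor in LG after quantile normalization (−0.88). SEPP1, the selenoprotein that carries selenium in plasma, stood at 27.0, 94.1 and 26.2 FPKM in LL, DP and LG and was called lower in LG than in DP (−1.50, SE 0.36) and in LL (−1.22, SE 0.36), the second call lost without LL library 2 (−1.12) or LG library 1 (−0.94), after quantile normalization (−0.94) and without scaling (−0.080). BLVRB, a biliverdin reductase, was called higher in LG than in DP (1.08, SE 0.16), though not without scaling (0.89) or with upper-quartile scaling (0.99). CP, ceruloplasmin, was called lower in LG than in DP at −1.48 (SE 0.50, limma adjusted p = 0.0432), on a DP mean of 4.47 ± 5.21 FPKM to which library 3 gave 10.4 FPKM. Without that library the difference was −0.76, and the call was lost without any 1 library other than DP library 2. HMOX1, heme oxygenase 1, was not called in any comparison (0.25, −0.60 and −0.85).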

How the data were processed

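Total RNA of mammary tissue from 9 goats was sequenced from TruSeq libraries. The submitters' processing notes name FastQC, Trimmomatic, HISAT2, SAMtools and HTSeq, without versions, and the study's methods name StringTie for quantification, so the gene-level step is not settled. The deposited table holds 1 value per gene and library and does not name its unit; the values were taken as FPKM computed by the authors, since they carry decimals and sum to 601250 to 1157010 per library. All 9 columns were used. Whole reads could not be recovered (80 genes under 100 bp hold values under 0.1 FPKM), so depth in reads is unknown here and no count model was run. Of 23499 genes, 3078 were at 0 in every library.

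Median-ratio factors came from 15905 genes, and the test used log2(scaled FPKM + 1). Genes at 0.5 FPKM or more in 3 or more libraries, 14701 in all, were fitted by limma 3.58.1 (R 4.3.3, moderated with a mean-variance trend) over the 9 libraries together, without covariates. Adjusted p-values are Benjamini-Hochberg over these genes. The limma p-values rest on the spread between goats within stages, pooled over the 3 stages and moderated across genes. A stage outside a comparison therefore also enters its limma p-value. Ratios and single levels were compared with two-sided exact permutation tests in Python 3.11.15 (numpy 2.4.6, pandas 2.3.3). On simulated data of 14701 genes for DP against LL, 189 of 200 genes changed by a log2 of 2 or 3 were called, with 4 unchanged genes. No change was planted in genes of low level or near the call size of 1. The simulation therefore does not show the power for such differences. All genes but the 200 had 1 mean in all stages, whereas 56.9% of genes tested had a limma adjusted p under 0.05 in DP against LL. How the scaling performs where so many genes differ was therefore not tested.

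The text names all 10 members, up to 2 called genes per list, comparison and direction with the largest differences, and the 2 genes nearest to each member. NFE2L2, KEAP1, GCLM, GGT1, GGT5, GPX1, HMOX1 and NCF1 were named after their values were seen. A listed gene is not reported here, and the list counts include it. Members and lists were chosen with earlier results of these data known. Symbols and positions come from the deposited table, which names no build. All 23465 gene identifiers found in the RefSeq table of ARS1.2 had equal coordinates there. SELENOP and SELENOW were matched as SEPP1 and SEPW1. A gene was taken as linked when its values followed those of a neighbour within 1%, and no member was. Alternatives covered scaling, pseudocount, filters, libraries in the fit, a replicate block, the trend, the call rule, linked genes and leaving out each library.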

Additional observations from a re-analysis of the deposited data

How the results depend on the processing

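Scaling decided most of what changed. Without scaling, 6 antioxidant enzyme genes were called in DP against LL instead of 1, and 2 in LG against LL, both higher, in place of 2 lower. In DP against LL the direction turned without scaling for SOD1 (0.37), CAT (1.28), PRDX1 (0.78), PRDX6 (0.65), NQO1 (0.99) and MGST1 (0.062), after quantile normalization for CAT (0.30) and PRDX1 (0.13), and with upper-quartile scaling for CAT (0.050) and NQO1 (0.048). In LG against LL it turned without scaling for SOD2 (0.50), PRDX1 (0.95), TXNRD1 (0.95), NQO1 (0.70), GCLC (0.57), GPX4 (0.068) and TXNIP (0.17), and after quantile normalization for PRDX1 (0.14), where 0 of the 10 were called. A pseudocount of 0.1 gave 2 called genes in DP against LL and turned the SOD3 to SOD1 ratio of LG against LL to 0.91. With no filter on low values 1 gene was called in LG against LL. With the adjusted p alone, DP against LL gave 5 called genes and LG against LL gave 4.

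Leaving out each library in turn gave 0 to 2 called genes in DP against LL, 1 to 2 in LG against LL and 2 to 3 in LG against DP. The sign of some small differences turned, with ranges of −0.052 to 1.54 for GPX3, −0.088 to 0.058 for TXNRD1 and −0.31 to 0.15 for NQO1 in DP against LL. The ranges for LG against LL were −0.13 to 0.11 for SOD1, −0.19 to 0.004 for TXNRD1, −0.40 to 0.032 for NQO1 and −0.10 to 0.16 for the TXNRD1 to PRDX1 ratio. In LG against DP they were −0.19 to 0.022 for TXNRD1 and −0.27 to 0.075 for NQO1.

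For the other antioxidant system genes, 37 were called without scaling and 38 with the adjusted p alone instead of 21 in DP against LL. The numbers for LG against LL were 26 and 34 instead of 16, and in LG against DP the adjusted p alone gave 39 instead of 14. Over all genes, no scaling gave 7979 higher and 369 lower in DP against LL instead of 2031 and 1292, and 6698 and 345 in LG against LL instead of 1575 and 972. In LG against DP it gave 715 and 1577 instead of 938 and 1013, and upper-quartile scaling gave 786 and 1187.
A pseudocount of 0.1 gave 2359 higher and 1553 lower over all genes in LG against LL. SOD3 has no value under a filter of 2 FPKM in 3 libraries, since it did not pass it.

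Equal replicate numbers do not pair the goats, since each goat gave a single stage. Deviations of same-numbered libraries correlated between −0.106 and 0.201, and not every pair was above 0.1. Those of different-numbered libraries correlated between −0.223 and 0.0722. The highest were same-numbered: DP1 with LG1 (0.201), DP3 with LG3 (0.156) and LL1 with DP1 (0.151). What else libraries of 1 number may share was not tested. A fit with the replicate number as a block called 1, 2 and 3 antioxidant enzyme genes in the 3 comparisons, each of them also called without the block. Fits on 2 stages only, without the mean-variance trend or without genes linked to a neighbour changed no call of the 10 genes. The table gives no read counts, so the depth behind a low value such as SOD3 in LL is not known from it and no counting error was computed. 3 goats per stage limit the precision of every comparison.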

Other observations

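Enzymes that make oxidants were measured beside those that remove them. Of 6 such genes tested, 3 were called lower in DP than in LL, 3 lower in LG than in LL and 1 higher in LG than in DP. Over all genes tested these shares were 8.79%, 6.61% and 6.38%. With the limma adjusted p under 0.05 alone, all 6 were lower in LG than in LL, beside 3623 of all 14701 genes tested. LPO, lactoperoxidase, the milk enzyme that uses peroxide against bacteria, stood at 148, 59.3 and 91.2 FPKM in LL and at 0.03 to 0.14 FPKM in all libraries of DP and LG. It was called lower than LL in DP (−7.35, SE 0.29) and in LG (−7.32, SE 0.29). XDH, xanthine dehydrogenase, which sits on milk fat globules and can release superoxide and peroxide, stood at 576, 512 and 411 FPKM for LL, 33.9, 36.1 and 30.0 for DP, and 476, 524 and 662 for LG. All DP libraries stood far below all others, and XDH was called lower in DP than in LL (−5.25, SE 0.21) and higher in LG than in DP (4.22, SE 0.21). It was also called lower in LG than in LL (−1.03, SE 0.21), though the LG mean as deposited (554 FPKM) was above that of LL (500). NCF4, a subunit of the phagocyte oxidase, was called lower than LL in DP (−2.15, SE 0.20) and LG (−1.51, SE 0.20, and −0.42 without scaling, where it was not called). NCF1, another subunit of that oxidase, was not called in any comparison. It was also lower in LG than in LL (−0.78, limma adjusted p = 0.0017), under the size needed for a call.

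ELF5, a transcription factor of the alveolar epithelium, stood at 325 ± 54.4 FPKM for LL, 46.9 ± 14.6 for DP and 566 ± 78.4 for LG (mean ± SD, n = 3 each). It was the 1 of 7 luminal epithelial markers called lower in DP than in LL, against 8.79% of all genes tested. Lymphocyte markers summed to 11.6 to 13.2 scaled FPKM for LL, 26.4 to 85.1 for DP and 16.1 to 25.6 for LG. All 4 lymphocyte markers tested were called higher in DP than in LL, against 13.8% of all genes tested. Endothelial markers summed to 109.5 to 139 for LL, 129 to 199.6 for DP and 62.8 to 86.7 for LG. None of the 6 was called in DP against LL, where 22.6% of all genes tested were. How far cell composition bears on the antioxidant genes was not tested.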
